A study of Mus musculus with 20 samples.

Results

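The levels of 10 genes that mark blood vessels were examined in RNA of the whole mouse utricle. The genes were chosen by name, as *Pecam1*, *Cdh5*, *Kdr*, *Flt1*, *Tie1*, *Tek*, *Cldn5*, *Esam* and *Eng* of endothelial cells and *Rgs5* of pericytes, and all 10 were found among the 25655 genes of the deposited tables. Utricles were taken from female C57BL/6J mice that were operated on at 8 weeks of age and sacrificed 4 weeks later. The sham + v group had a sham operation and a vehicle pellet, and the other groups were ovariectomized (OVX) and received a vehicle pellet (OVX + v), an estradiol pellet of 50 µg (OVX + E2), or a raloxifene pellet of 2.4 mg (OVX + RAL), each with a release time of 60 days. There were 5 libraries in each group, named here by their library numbers 1 to 20. All animals were of 1 strain and 1 sex, and no group carried an engineered allele. Raloxifene is a selective estrogen receptor modulator, and the study compared estrogen loss with and without these treatments.

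The utricle is an otolith organ of the inner ear, and its sensory sheet lies over connective tissue that carries capillaries. Endothelial cells line these capillaries, held together by adherens and tight junctions, and pericytes wrap around them from outside. Vascular endothelial growth factor acts through the receptor *Kdr*, while *Flt1* binds the same ligand tightly and signals weakly. Angiopoietins act through *Tek*, whose activity the related receptor *Tie1* modulates, and *Eng* is a coreceptor for ligands of the bone morphogenetic protein and transforming growth factor families. *Pecam1*, *Cdh5*, *Cldn5* and *Esam* encode proteins of endothelial cell contacts, and *Rgs5* encodes a regulator of G protein signalling.

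The libraries, prepared with a 3′ end kit from an input of 1 ng RNA, held 1123053 to 2081747 counted reads. The OVX + E2 libraries held 1123053 to 1507667 reads and 7427 to 9680 genes with a count, and those of the other groups 1435156 to 2081747 reads and 8651 to 10694 genes. A level is given as CPM, the reads of a gene per 1000000 reads counted in its library. With 3′ reads a long transcript gives no more reads than a short one, so CPM was not divided by gene length. A single read was therefore a fraction of 1 CPM, and 3 reads, which a count of 0 allows, were 1.44 to 2.67 CPM depending on the library.

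In the deposited tables, on GRCm39, *Kdr* lies at chr5:76093487-76139118 and *Flt1* at chr5:147498414-147662821, both on the reverse strand. *Tie1* lies at chr4:118328388-118347258 on the reverse strand and *Tek* at chr4:94627526-94763213 on the forward strand. *Eng* is at chr2:32536607-32572681, *Cdh5* at chr8:104828257-104871143, *Esam* at chr9:37439374-37449615, *Cldn5* at chr16:18595597-18597012 and *Rgs5* at chr1:169483070-169523382, each on the forward strand, and *Pecam1* at chr11:106545043-106641454 on the reverse strand. *Cldn5* has 1 exon, and the canonical transcripts of the other genes have 5 (*Rgs5*) to 30 (*Kdr* and *Flt1*). The last 61 bases of *Eng* overlap *Fpgs* on the opposite strand, and whether the counting used strand is not given in the sources used here. In the later GENCODE vM39 annotation the 3′ ends of *Eng*, *Rgs5* and *Pecam1* lie 1980, 1505 and 1354 bases beyond the deposited regions, and those of the other 7 genes 0 to 11 bases beyond. The canonical transcripts of these 3 genes end within the deposited regions. Whether reads were missed there was not tested.

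RefSeq promoters on GRCm38.p6 were matched for 7 of the 10 genes, all but *Pecam1*, *Cdh5* and *Esam*. The 250 bases before the start site are shown for *Kdr*, *Flt1* and *Rgs5*, the genes with the most reads, 5′ to 3′ on the strand of the gene. Capitals mark GGAA or its reverse complement, the core that ETS factors of the endothelium bind.
*Kdr*, chr5:75978456-75978705, reverse strand: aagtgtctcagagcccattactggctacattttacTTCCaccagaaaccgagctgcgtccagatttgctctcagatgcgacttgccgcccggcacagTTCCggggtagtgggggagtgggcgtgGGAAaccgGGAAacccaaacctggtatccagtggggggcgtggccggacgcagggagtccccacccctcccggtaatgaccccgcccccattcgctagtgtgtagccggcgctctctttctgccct
*Flt1*, chr5:147726012-147726261, reverse strand: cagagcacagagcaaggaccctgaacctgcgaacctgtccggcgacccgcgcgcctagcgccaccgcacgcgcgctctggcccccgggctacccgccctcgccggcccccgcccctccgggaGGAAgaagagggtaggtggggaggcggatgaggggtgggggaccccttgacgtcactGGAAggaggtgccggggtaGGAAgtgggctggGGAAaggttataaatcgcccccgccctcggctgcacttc
*Rgs5*, chr1:169655251-169655500, forward strand: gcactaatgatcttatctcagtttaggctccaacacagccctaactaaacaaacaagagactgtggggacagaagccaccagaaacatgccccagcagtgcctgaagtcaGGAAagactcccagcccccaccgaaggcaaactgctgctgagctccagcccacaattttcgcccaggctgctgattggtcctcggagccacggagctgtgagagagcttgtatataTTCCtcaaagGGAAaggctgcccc
*Kdr* and *Flt1* held 4 matches each and *Rgs5* 3, of a median of 3 in all 32851 promoters of this length. The core was present in 6 of the 7 promoters, all but that of *Cldn5*, and in 93.4% of all promoters. The full estrogen response element GGTCANNNTGACC was found on either strand in 0 of the 7 and in 0.0639% of all promoters. The shorter GGTCA, which the full element contains, was found in the promoters of *Kdr* and *Tek* and in 35.2% of all promoters. The 4-letter core is so frequent that its matches do not set these genes apart.

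The 10 genes were read in 5 (*Tek*) to 20 (*Kdr*) of the 20 libraries. *Kdr* had 220 ± 101 CPM over the 20 libraries (mean ± SD), *Rgs5* 74.8 ± 60.1 CPM and *Flt1* 55.8 ± 56.2 CPM. The other 7 genes averaged 2.65 CPM (*Tek*) to 28.8 CPM (*Esam*). *Kdr* ranked 660 of the 15803 genes with a count, and *Tek* 12538. Of the 200 values of the 10 genes in 20 libraries, 66 (33.0%) were 0 and 7 were 1 or 2 reads. *Kdr* was the only gene of the 10 with reads in all 20 libraries, and no library had reads of all 10. The number of genes read per library ran from 3 in OVX + RAL replicate 16 to 9 in 1 OVX + E2 and 3 OVX + RAL libraries. Zeros were also common in other genes of low level, as given below, so the number of genes read is not taken as a measure of vessel cells. In a bulk sample, fewer vessel cells and less RNA per cell cannot be told apart.

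**Figure D1:**
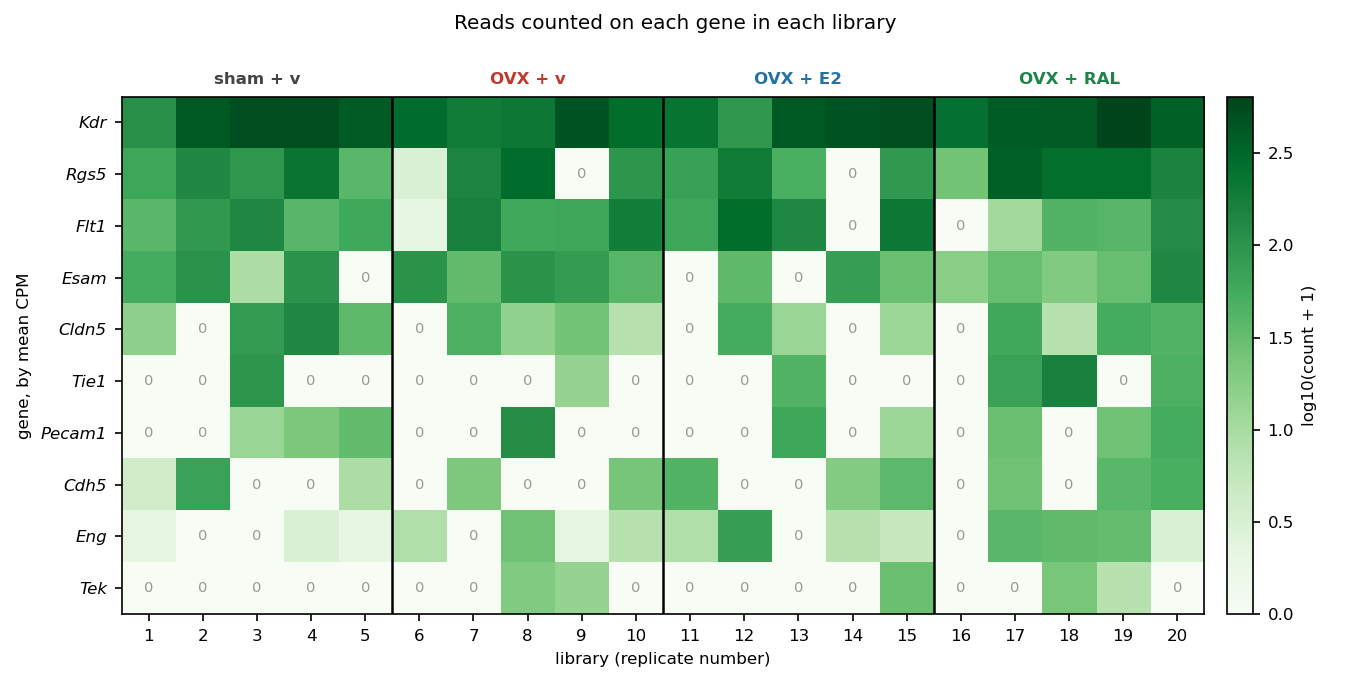
Reads counted on each of the 10 genes (rows, from highest to lowest mean CPM) in each of the 20 libraries (columns, by replicate number), on a log10(count + 1) colour scale, with 0 written where there was no read. *Kdr* is read in all 20 libraries, while *Tek* is read in 5 and *Tie1* in 6, and the zeros of different genes fall in different libraries.

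The number of libraries with reads was compared with that of all genes of a like level. Among genes with a mean of 10 to 20 CPM, the median gene had reads in 13 of 20 libraries (10th to 90th percentile 9 to 16). *Cldn5* with 15 libraries lay inside this range and *Pecam1* with 9 on its lower edge, while *Tie1* had reads in 6 libraries. *Eng* was the opposite case, with reads in 15 libraries where the 10th to 90th percentile for genes of 5 to 10 CPM was 5 to 12. In 5 of those 15 libraries it had only 1 or 2 reads. *Flt1* and *Rgs5* were each read in 18 libraries, the 10th percentile of genes at 50 to 100 CPM.

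**Figure D2:**
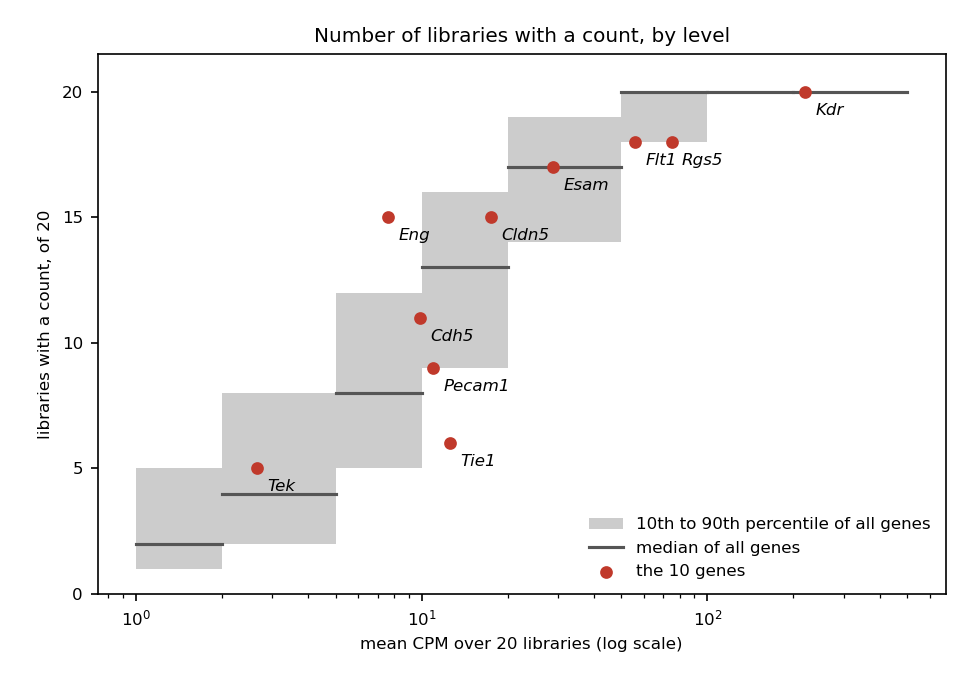
Number of libraries with a count, of 20, against mean CPM on a log scale for the 10 genes (red points). Grey boxes span the 10th to 90th percentile of all genes in each range of mean CPM and the dark lines their medians. *Tie1* at 12.6 CPM lies below its box with 6 libraries, and *Eng* at 7.64 CPM above its box with 15.

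*Kdr*, the main signalling receptor for vascular endothelial growth factor, was the steadiest of the 10. Its level in libraries 1 to 5 of the sham + v group was 55.5, 219, 304, 294 and 267 CPM. In libraries 6 to 10 of the OVX + v group it was 176, 119, 118, 227 and 192 CPM. The OVX + E2 group, libraries 11 to 15, had 151, 67.2, 342, 411 and 370.4 CPM, and the OVX + RAL group, libraries 16 to 20, had 128, 213, 237, 336 and 170.05 CPM. The mean was lowest in the OVX + v group (166 ± 47.5 CPM, SD, n = 5), followed by the OVX + RAL (217 ± 78.7), sham + v (228 ± 102) and OVX + E2 (268 ± 150) groups. All groups overlapped, since the lowest sham + v and OVX + E2 libraries lay below every OVX + v library. The log2 fold change relative to OVX + v was 0.46 (SE 0.386, 95% interval -0.30 to 1.21) in the sham + v group, 0.69 (SE 0.434, -0.16 to 1.54) in the OVX + E2 group and 0.39 (SE 0.363, -0.33 to 1.096) in the OVX + RAL group. These 3 comparisons share the OVX + v libraries. Their adjusted p-values from edgeR (quasi-likelihood, Benjamini-Hochberg over all genes) were 1.00, 0.633 and 1.00, respectively. The OVX + E2 and OVX + RAL groups differed by a log2 fold change of 0.31 (SE 0.426, -0.53 to 1.14), so that neither equality nor a doubling was outside the interval. With 1 library left out in turn it ran from 0.10 to 0.55. Relative to OVX + v the values then ran from 0.33 to 0.71 (sham + v), 0.49 to 0.94 (OVX + E2) and 0.17 to 0.53 (OVX + RAL). Across the 20 libraries the CPM of *Kdr* had a Spearman rho of -0.32 with the total count and -0.43 with the number of genes with a count, both of which ran lower in the OVX + E2 group, and their part in the result was not tested.

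*Flt1*, which binds the same growth factor, had its highest mean in the OVX + E2 group and its lowest in the OVX + RAL group. It had 18.02, 45.7, 82.4, 21.2 and 39.13 CPM in the sham + v libraries and 0.623, 104.8, 34.0, 30.7 and 125 CPM in the OVX + v libraries. In the OVX + E2 group the levels were 41.8, 205, 112, 0 and 147 CPM, and in the OVX + RAL group 0, 5.39, 24.1, 20.5 and 59.6 CPM. The OVX + E2 libraries thus held both the highest value of all 20 and a value of 0, and the OVX + RAL libraries lay within their range. The group means were 41.3 ± 25.8, 59.0 ± 53.0, 101 ± 81.9 and 21.9 ± 23.3 CPM in sham + v, OVX + v, OVX + E2 and last OVX + RAL libraries. Between the OVX + E2 and OVX + RAL groups *Flt1* had a log2 fold change of 2.20 (SE 0.968, 95% interval 0.31 to 4.10), with an unadjusted p of 0.0228 from edgeR that did not pass the adjustment (adjusted p = 0.353, and 0.327 to 1.00 over 16 alternatives). With 1 library left out in turn it ran from 1.78 without OVX + E2 replicate 12 to 3.01 without OVX + RAL replicate 20. In this comparison 14.1% of all 13753 genes tested had an unadjusted p under 0.05, and *Flt1* was 1 of 10 among the vessel genes. Relative to OVX + v the log2 fold changes were 0.78 (SE 0.776) with estradiol and -1.42 (SE 0.919) with raloxifene, with adjusted p-values of 1.00 and 0.761 (edgeR). With 1 library left out in turn, the fold change with estradiol ran from 0.35 to 1.25. That with raloxifene ran from -2.23, without OVX + RAL replicate 20, to -0.95. *Flt1* also ran against the library totals, with a Spearman rho of -0.42 over the 20 libraries, and the part of depth in the result was not tested.

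The receptors *Tie1* and *Tek* were read in few libraries, and where they were read they had 6 to 163 reads. *Tie1* had 95 reads in sham + v replicate 3, 13 in OVX + v replicate 9 and 41 in OVX + E2 replicate 13, and 0 in the other libraries of these groups. In the OVX + RAL group it had 69, 163 and 47 reads in replicates 17, 18 and 20. The mean was 31.1 ± 39.4 CPM (SD, n = 5) in the OVX + RAL group and 1.29 ± 2.88 CPM in the OVX + v group, with 0 reads in 2 and 4 libraries, so that the groups overlapped. The log2 fold change was 4.49 (SE 1.93, 95% interval 0.71 to 8.26), with an unadjusted p of 0.0206 and an adjusted p of 0.402 from edgeR (0.369 to 1.00 over 15 alternatives). In this comparison 12.1% of all 14002 genes tested had an unadjusted p under 0.05. With 1 library left out in turn, the log2 fold change ran from 3.45 without OVX + RAL replicate 18 to 8.78 without OVX + v replicate 9, the library that held all *Tie1* reads of its group.

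*Tek* had no read in any of the 5 sham + v libraries. It had 19 and 13 reads in OVX + v replicates 8 and 9, 28 in OVX + E2 replicate 15, and 22 and 6 in OVX + RAL replicates 18 and 19. Taking 3 reads in each sham + v library (1.70 CPM on average) as the floor, *Tek* was at least 2.03-fold lower in the sham + v than in the OVX + v group (3.44 ± 4.96 CPM), with an unadjusted p of 0.0401 and an adjusted p of 0.363 from edgeR (0.362 to 0.978 over 15 alternatives). In this comparison 12.5% of the 13825 genes tested had an unadjusted p under 0.05. Since 3 of the 5 OVX + v libraries also had 0 reads, the groups overlapped. The ratio to the floor rests on 1 library: without OVX + v replicate 8 the OVX + v mean was 1.61 CPM, under the floor.

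*Eng*, the coreceptor, had 1, 0, 0, 2 and 1 reads in the sham + v libraries, which is under the 3 reads that a count of 0 allows in each of them. It had 7, 0, 26, 1 and 6 reads in the OVX + v group, 7, 76, 0, 6 and 4 in the OVX + E2 group, and 0, 37, 33, 31 and 2 in the OVX + RAL group. The single OVX + E2 replicate 12 held 81.7% of the reads of its group. The log2 fold change of the sham + v relative to OVX + v was -3.20 (SE 3.11, 95% interval -9.30 to 2.90, edgeR adjusted p = 1.00). The interval covers a difference in either direction, and without OVX + v replicate 8 the value was -2.15.

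The 4 genes of endothelial contacts differed in which libraries they were read in. *Pecam1*, an adhesion molecule of endothelial cells that platelets and leukocytes also carry, had 0, 0, 12, 21 and 32 reads in the sham + v group. All 120 reads of the OVX + v group came from replicate 8. The OVX + E2 group had 61 reads in replicate 13 and 11 in replicate 15, and the OVX + RAL group 28, 26 and 54 in replicates 17, 19 and 20. Its log2 fold change relative to OVX + v was -0.76 in the sham + v, -0.26 in the OVX + E2 and -0.31 in the OVX + RAL group. Without OVX + v replicate 8 these became 6.81, 7.07 and 7.30, so that this library set the direction; the OVX + v group then had no *Pecam1* read, and such fitted values are no bounds.

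*Cdh5*, the cadherin of endothelial adherens junctions, had 3, 69, 0, 0 and 8 reads in the sham + v libraries and 0, 20, 0, 0 and 23 in the OVX + v libraries. The OVX + E2 libraries had 41, 0, 0, 18 and 36 reads and the OVX + RAL libraries 0, 26, 0, 37 and 50. The group means lay between 5.71 ± 7.92 CPM (OVX + v) and 13.7 ± 13.2 CPM (OVX + E2), closer together than the libraries of any group. *Cldn5*, a claudin of endothelial tight junctions, had 15, 0, 83, 137 and 35 reads in the sham + v group and 0, 46, 14, 24 and 6 in the OVX + v group. It had 0, 54, 12, 0 and 11 reads in the OVX + E2 group and 0, 60, 6, 52 and 41 in the OVX + RAL group. The mean was 31.3 ± 31.6 CPM in the sham + v and 10.6 ± 11.1 CPM in the OVX + v group (log2 fold change 1.56, SE 1.62, 95% interval -1.61 to 4.72, edgeR adjusted p = 1.00), with 0.91 without sham + v replicate 4 and 2.36 without OVX + v replicate 7.

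*Esam*, an adhesion molecule at the tight junctions of endothelial cells, had, like *Pecam1*, its highest mean in the OVX + v group. It had 25.3, 53.0, 4.74, 57.6 and 0 CPM in the sham + v libraries and 62.3, 20.1, 56.1, 40.1 and 27.2 CPM in the OVX + v libraries, all 5 of which had reads. The OVX + E2 libraries had 0, 26.4, 0, 66.8 and 19.6 CPM and the OVX + RAL libraries 8.23, 16.2, 11.2, 15.7 and 64.8 CPM. In the OVX + RAL group 4 of the 5 libraries lay below every OVX + v library and the fifth above them all. The log2 fold change relative to OVX + v was -0.55 (SE 1.14) in the sham + v, -0.87 (SE 1.45) in the OVX + E2 and -0.82 (SE 1.04) in the OVX + RAL group, none past the threshold of edgeR (adjusted p = 1.00 in each). Without OVX + E2 replicate 14 that of OVX + E2 was -1.83, and without OVX + RAL replicate 20, which held 58.7% of the *Esam* reads of its group, that of OVX + RAL was -1.68.

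*Rgs5*, the pericyte gene, had 30.7, 70.3, 54.5, 125 and 24.5 CPM in the sham + v libraries and 1.25, 92.8, 160.4, 0 and 65.5 CPM in the OVX + v libraries. The OVX + E2 libraries had 47.8, 143, 38.5, 0 and 61.7 CPM, and the OVX + RAL libraries 12.3, 197, 156, 142 and 73.0 CPM. The highest value of the 20 was in the OVX + RAL group, and its replicate 16 lay below all sham + v libraries. The OVX + RAL mean was 116 ± 73.2 CPM, against 61.0 ± 40.1, 64.0 ± 67.4 and 58.3 ± 52.9 CPM in the other groups, sham + v, OVX + v and OVX + E2 in turn. The log2 fold change of the OVX + RAL relative to OVX + v was 0.86 (SE 0.568, 95% interval -0.25 to 1.97, edgeR adjusted p = 0.795), and that of the sham + v relative to OVX + v was -0.07 (SE 0.748). With 1 library left out in turn the former ran from 0.54 without OVX + v replicate 9 to 1.54 without OVX + v replicate 8.

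**Figure D3:**
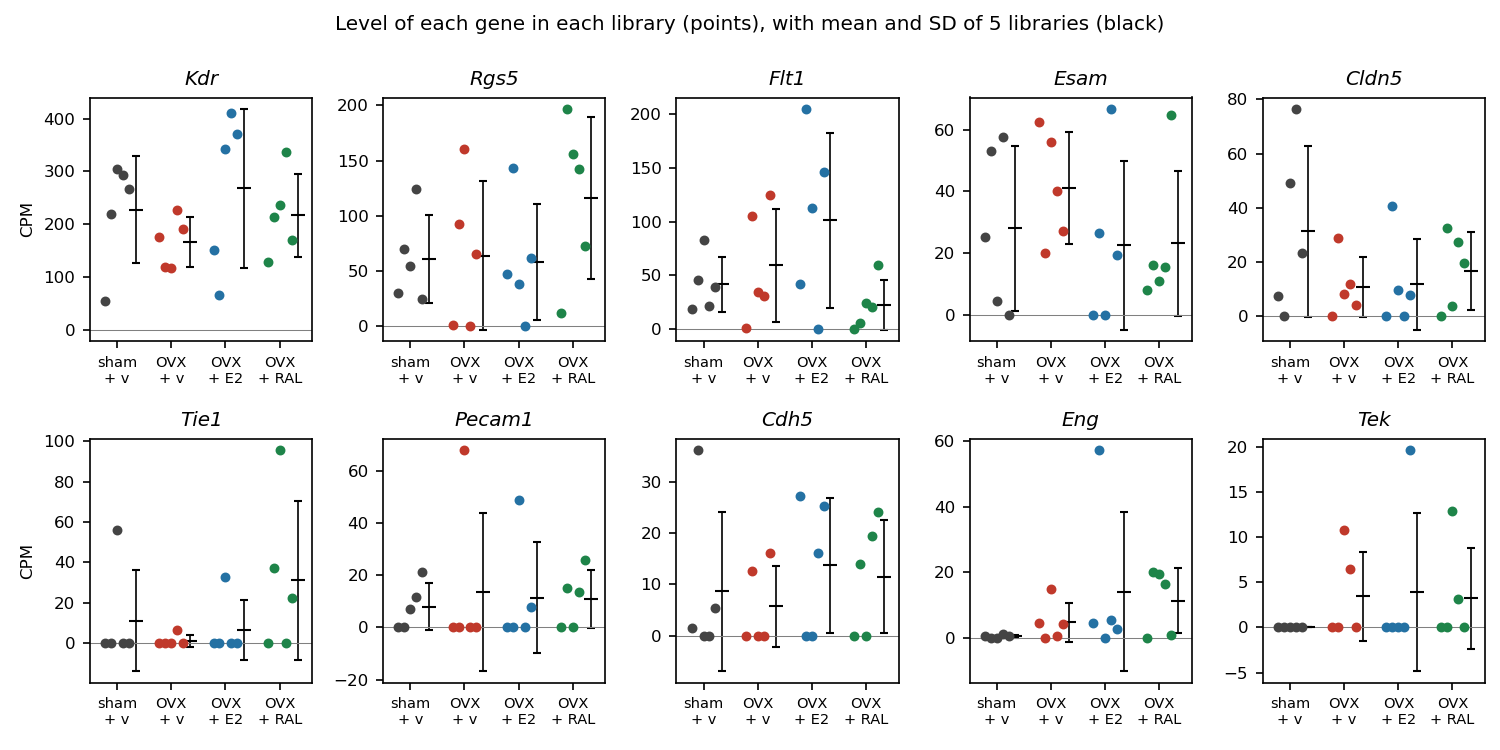
CPM of each gene in each of the 5 libraries of the 4 groups (coloured points), with the mean and SD of the group in black and a separate axis for each gene. The libraries of every group overlap those of the others, and 1 library carries the group mean for *Pecam1* in the OVX + v group (68.0 CPM) and *Tie1* in the sham + v group (56.3 CPM).

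None of the 10 genes passed an adjusted p of 0.05 in any comparison by edgeR or by DESeq2. The labels do not say that the libraries of a group came from separate animals, so p-values measure the spread between these libraries. Relative to OVX + v, the share of all genes tested that passed was 0.0145% in the sham + v, 0.0584% in the OVX + E2 and 0.0286% in the OVX + RAL group, and it was 0.0727% between the OVX + E2 and OVX + RAL groups. In the test for any difference among the 4 groups it was 0.141% of 14870 genes. At an unadjusted p under 0.05, edgeR gave 1 of the 10 genes (*Tek*) in the sham + v comparison, 0 in that of estradiol where 13.9% of 13695 genes passed, 1 (*Tie1*) in that of raloxifene and 1 (*Flt1*) between estradiol and raloxifene. In the test across the 4 groups it gave 0 of the 10, where 16.3% of all genes passed, and DESeq2 gave 0 of the 10 in every comparison. By DESeq2 the share of all genes at an unadjusted p under 0.05 was 4.95% in the sham + v, 5.24% in the OVX + E2 and 5.05% in the OVX + RAL group relative to OVX + v, 5.64% between the OVX + E2 and OVX + RAL groups and 2.82% across the 4 groups. Its shares at an adjusted p of 0.05 were 0.00723%, 0.256%, 0.0286%, 0.305% and 0.0134% in the same order. The default filter of edgeR, which drops genes of few reads, kept 5, 6, 6 and 7 of the 10 genes in the comparisons of 2 groups, in that order. Of those kept, 0 had an unadjusted p under 0.05 by edgeR. Of all genes kept, 148 of 8956, 149 of 8354, 171 of 9357 and 151 of 8429 had such a p. No gene of the 10 had groups whose CPM values did not overlap, which was so for 0.499%, 0.832% and 0.578% of all genes relative to OVX + v and 0.909% between the OVX + E2 and OVX + RAL groups. With so few calls among all genes, the lack of calls among these 10 does not set them apart.

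The median log2 fold change of the 10 genes relative to OVX + v was -0.29 in the sham + v group (4 higher, 6 lower; -0.02 over all genes tested), 0.44 in the OVX + E2 group (7 higher, 3 lower; -0.06 over all genes) and 0.51 in the OVX + RAL group (6 higher, 4 lower; -0.03 over all genes). Between the OVX + E2 and OVX + RAL groups it was 0.15, with 6 genes higher and 4 lower, and 0.02 with TMM. With 1 library left out in turn, the OVX + E2 median ran from 0.17 without OVX + v replicate 6 to 0.78 without OVX + v replicate 8, and the OVX + RAL median from 0.28 without OVX + RAL replicate 19 to 0.82 without OVX + v replicate 8. *Kdr*, *Cdh5*, *Cldn5* and *Tie1* had their lowest means in the OVX + v group, while *Esam* and *Pecam1* had their highest means there. The direction of the sham + v median turned to 0.31 without OVX + v replicate 8, and that between estradiol and raloxifene to -0.16 without OVX + RAL replicate 16, -0.14 without OVX + RAL replicate 18 and -0.04 without OVX + E2 replicate 15. The precision differed widely between the genes. The biological coefficient of variation is the spread between libraries of a group beyond counting error. The values that the edgeR fit used followed a trend with level over all genes. They were 0.591 for *Kdr*, 0.861 for *Rgs5* and 1.01 for *Flt1*, and 1.45 (*Esam*) to 3.80 (*Tek*) for the others. They fell as the mean CPM of the gene rose, so they do not measure the spread of each gene on its own. The median of all genes was 1.79. The low value of *Kdr* follows from its high level by this trend and is no measure of its own spread.

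**Figure D4:**
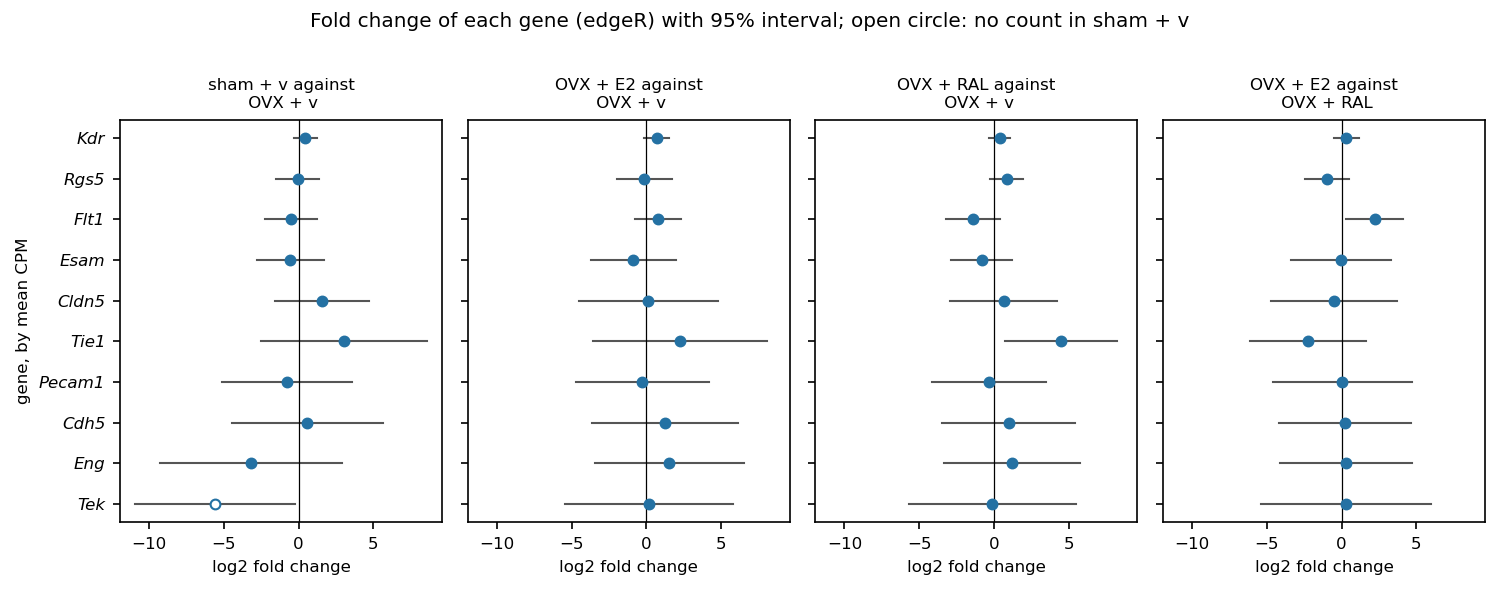
Log2 fold change of each gene in 4 comparisons by edgeR (points) with its 95% interval (lines), genes ordered by mean CPM, and an open circle for *Tek*, which had no count in the sham + v group. The interval of *Kdr* is the narrowest in each panel, and the intervals that do not include 0 are those of *Tek* (sham + v), *Tie1* (OVX + RAL against OVX + v) and *Flt1* (OVX + E2 against OVX + RAL), whose adjusted p-values were 0.363, 0.402 and 0.353.

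Summed over the 10 genes, the level was 418 ± 178 CPM in the sham + v, 370 ± 89.6 CPM in the OVX + v, 512 ± 147 CPM in the OVX + E2 and 463 ± 182 CPM in the OVX + RAL group (SD, n = 5). The sums of single libraries ran from 139 CPM in sham + v replicate 1 to 661 CPM in OVX + E2 replicate 15, and those of the 4 groups overlapped. *Kdr* alone made up 12.4% to 86.2% of the sum in a library. Without *Kdr* the sums were 190 ± 89.6, 204 ± 119, 243 ± 153 and 246 ± 130 CPM. OVX + RAL replicate 16, in which only *Kdr*, *Rgs5* and *Esam* were read, had 149 CPM, while the other 4 libraries of its group had 461 to 594 CPM. Its 10 largest genes took 19.6% of its reads, the highest share of the 20 libraries, and the part of this in the result was not tested.

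**Figure D5:**
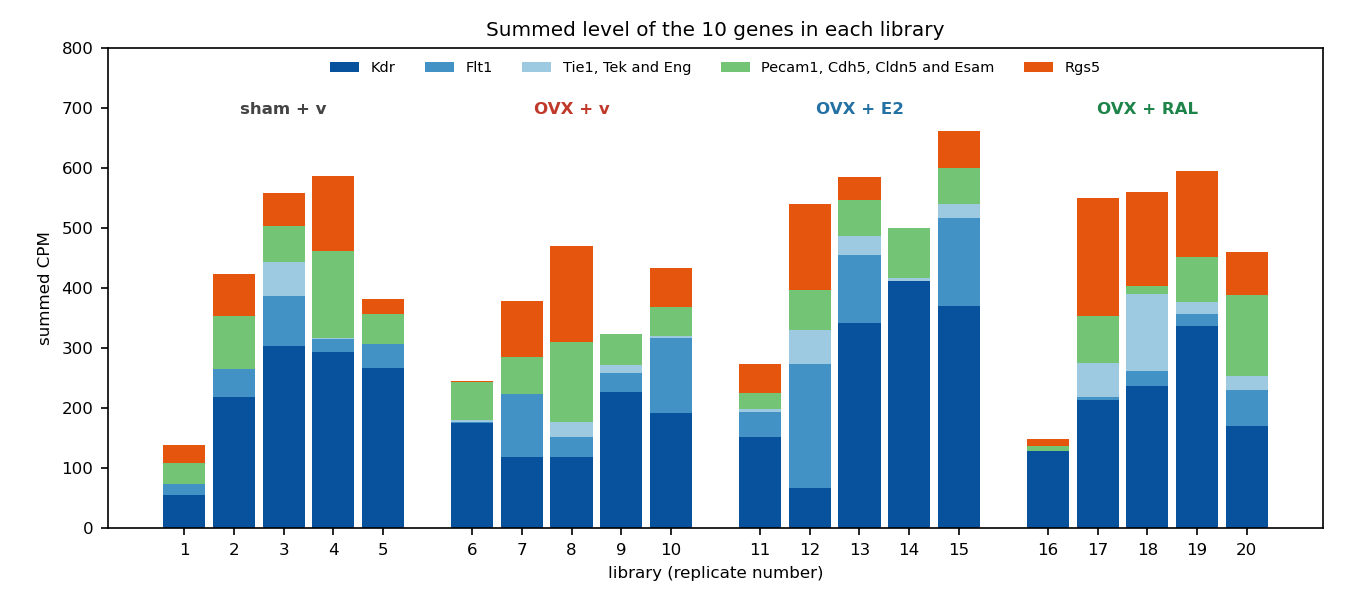
Summed CPM of the 10 genes in each library, split into *Kdr*, *Flt1*, the receptors *Tie1*, *Tek* and *Eng*, the 4 contact genes, and *Rgs5*. Sham + v replicate 1 (139 CPM) and OVX + RAL replicate 16 (149 CPM) are the lowest bars, and the sums of the 4 groups overlap.

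The 10 genes varied little together across the 20 libraries. Over their 45 pairs the Spearman rho of CPM ran from -0.28 to 0.49 with a median of 0.06, and after the group means were subtracted from -0.23 to 0.53 with a median of 0.08. The highest values were those of *Eng* with *Rgs5* (0.49), *Pecam1* with *Cldn5* (0.48) and *Cldn5* with *Rgs5* (0.47). The points share library depth and many zeros, so that these values only describe the libraries. For the 7 genes with a mean of at least 10 CPM, the mean of their standardized log2(CPM + 1) was compared with 9526 other genes at that level. Among the 10 genes most like it were *Trim32* (rho 0.89), *Niban2* (0.79), *Adipor1* (0.77), *Tns1* (0.77), *Ufd1* (0.74), *Ikzf4* (0.74), *Pacsin1* (0.74), *Adsl* (0.73) and *Cnst* (0.72), none of them on the lists of vessel genes used here. After the group means were subtracted, *Adipor1* (0.84) and *Trim32* (0.82) led, followed by *Il6st* (0.80) and *mt-Co2* (0.77). For 22 other endothelial genes at that level the median rho was 0.12, where it was 0.0049 over all 9526 genes. It was also 0.12 for 6 Schwann cell genes, so that the likeness was not particular to endothelial genes. After the group means were subtracted it was 0.073 for the endothelial and 0.21 for the Schwann cell genes.

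Of 40 other genes of endothelial cells, 39 had reads, and 6 had reads in all 20 libraries. Their summed level was 1046 ± 103 CPM in the sham + v, 1037 ± 126 in the OVX + v, 1237 ± 248 in the OVX + E2 and 1097 ± 162 in the OVX + RAL group. Those with the highest mean were *Cavin2*, a protein of endothelial caveolae (105.3 CPM), *Tm4sf1* (104 CPM) and *Podxl*, a sialomucin of the luminal surface (103 CPM). *Tm4sf1* had a log2 fold change of 0.74 (SE 0.597) in the OVX + E2 relative to OVX + v, *Cavin2* of 0.18 (SE 0.590) and *Podxl* of 0.14 (SE 0.7095). By edgeR 0 of the 35 or 36 genes tested passed an adjusted p of 0.05 in any comparison with the OVX + v group, with 6, 4 and 5 at an unadjusted p under 0.05 for sham + v, for OVX + E2 and for OVX + RAL (2, 2 and 3 by DESeq2, which also called 0). Over all genes the shares were 12.5%, 13.9% and 12.1% by edgeR and 4.95%, 5.24% and 5.05% by DESeq2, and the same shares apply to the lists that follow. The median log2 fold changes were 0.08, 0.60 and 0.52. *Pglyrp1*, a gene of brain endothelium, had no read in any library.

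Other genes of mural cells were read at low levels. Of 18 further genes of pericytes and vascular smooth muscle 17 had reads, none of them in all 20 libraries, and *Ndufa4l2* had none. Their summed level was 189 ± 71.8, 147 ± 18.5, 267 ± 132 and 211 ± 99.9 CPM in sham + v, OVX + v, OVX + E2 and last OVX + RAL libraries. *Mylk*, the kinase of myosin light chains in smooth muscle, had the highest mean (57.1 CPM), with a log2 fold change of 1.67 (SE 0.729, edgeR adjusted p = 0.402) in the OVX + RAL relative to OVX + v. *Pdgfrb*, the platelet-derived growth factor receptor of pericytes, had 39.3 CPM and a log2 fold change of -1.10 (SE 1.14) there, opposite to that of *Rgs5*. *Vtn* had 26.5 CPM and a log2 fold change of -1.34 (SE 1.65). Of the 14 to 16 genes tested relative to OVX + v, 0 passed an adjusted p of 0.05 by edgeR or DESeq2, and 1, 2 and 3 had an unadjusted p under 0.05 by edgeR (0, 0 and 2 by DESeq2), beside 12.5%, 13.9% and 12.1% of all genes by edgeR.

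Ligands and partners of the receptors were examined in the same way. Of 17 genes of the vascular endothelial growth factor and angiopoietin axis, 16 had reads and *Vegfd* had none. The coreceptors *Nrp2* (140.04 CPM) and *Nrp1* (89.9 CPM) and the ligand *Vegfb* (82.2 CPM) had the highest means. *Nrp1* had a log2 fold change of -1.23 (SE 0.747, edgeR adjusted p = 0.590) in the OVX + E2 relative to OVX + v, *Nrp2* of -0.17 (SE 0.515) and *Vegfb* of -0.18 (SE 0.841). The median log2 fold change of the genes tested was -0.91 in the sham + v (14 genes), -0.53 in the OVX + E2 (13 genes) and -0.27 in the OVX + RAL group (15 genes) relative to OVX + v. By edgeR 0 passed an adjusted p of 0.05, with 5, 2 and 4 at an unadjusted p under 0.05, and by DESeq2 0 passed, with 1, 0 and 2. Of all genes 12.5%, 13.9% and 12.1% had such a p by edgeR and 4.95%, 5.24% and 5.05% by DESeq2. Of 10 genes of the endoglin and bone morphogenetic protein axis all had reads. *Id3*, a target of that pathway, had 258 CPM and a log2 fold change of -0.61 (SE 0.384) in the sham + v relative to OVX + v, the receptor *Bmpr2* 110.04 CPM and 0.30 (SE 0.499), and *Tgfbr2* 85.6 CPM and -1.04 (SE 0.664). By edgeR 0 of these genes passed an adjusted p of 0.05 relative to OVX + v, with 3, 0 and 0 at an unadjusted p under 0.05 (2, 0 and 1 by DESeq2, which called 0). The estrogen receptors *Esr1*, *Gper1* and *Esr2* had means of 7.12, 5.04 and 3.89 CPM and were read in 7, 6 and 3 libraries. Relative to OVX + v, 0 of those tested passed an adjusted p of 0.05 by edgeR or DESeq2, and 0 had an unadjusted p under 0.05 by either. Between the OVX + E2 and OVX + RAL groups, 0 genes of these 5 lists passed by edgeR or DESeq2, and the genes with an unadjusted p under 0.05 by edgeR numbered 1 of 36 other endothelial, 3 of 17 mural, 3 of 13 growth factor and angiopoietin, 0 of 10 endoglin axis and 1 of 3 estrogen receptor genes, beside 14.1% of all genes.

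Platelets also carry *Pecam1* and *Esam*, and leukocytes *Pecam1*, so genes of blood cells were examined beside them. The summed level of 6 red cell genes ranged from 571 to 1747 CPM in the sham + v, 830 to 2462 in the OVX + v, 363 to 3837 in the OVX + E2 and 825 to 2909 in the OVX + RAL group. *Hba-a2*, *Hbb-bs* and *Hba-a1*, of haemoglobin, had means of 521, 462 and 303 CPM. The platelet genes were low, with *Pf4* at 29.5 CPM, *Itga2b* at 9.59 CPM, *Gp1bb* at 3.86 CPM and *Ppbp* and *Gp9* at 0 in every library, and the summed level ranged from 0 to 171 CPM. The 8 leukocyte and macrophage genes, led by *Lyz2* (227 CPM), *Csf1r* (30.9 CPM) and *C1qa* (28.2 CPM), summed to 154 to 706 CPM. Over the 20 libraries the summed level of the 10 vessel genes had a Spearman rho of -0.21 with red cell, -0.32 with platelet, -0.13 with leukocyte, -0.47 with fibroblast, -0.42 with melanocyte, -0.34 with skeletal muscle, -0.27 with hair cell and 0.21 with Schwann cell genes, and their part in the result was not tested. Hair cell genes (*Myo6* 393 CPM, *Pou4f3* 276 CPM and *Gfi1* 207 CPM) and melanocyte genes (*Dct* 765 CPM, *Pmel* 70.9 CPM and *Mlana* 44.3 CPM) were read in the utricle. So were *Mbp* of Schwann cells (670.2 CPM), fibroblast genes (*Dcn* 749 CPM, *Col1a2* 211 CPM and *Pdgfra* 91.4 CPM) and, at lower levels, skeletal muscle genes (*Ttn* 44.5 CPM, *Myh4* 21.2 CPM and *Acta1* 16.9 CPM). The median log2 fold change of OVX + E2 relative to OVX + v was -0.27 for red cell, -0.41 for platelet, -0.51 for leukocyte, -0.27 for fibroblast, 0.43 for Schwann cell, 0.17 for hair cell, -0.30 for melanocyte and -2.76 for skeletal muscle genes. That of OVX + RAL was 0.07, -0.02, -0.29, 0.16, -0.16, -0.18, 0.46 and 0.32 in the same order, and that of sham + v was -0.36, 0.69, -0.47, -0.16, 0.07, 0.11, -0.38 and -1.69. The Schwann cell median of OVX + E2, with 5 of 6 genes higher, was close to the 0.44 of the vessel genes, and between the OVX + E2 and OVX + RAL groups it was 0.67. Its part in the vessel gene values was not tested. Of all marker lists of other cell types, 0 genes passed an adjusted p of 0.05 by edgeR in any comparison. DESeq2 called *Mbp* between the OVX + E2 and OVX + RAL groups and *Myh4* in both comparisons of the OVX + E2 group. By edgeR *Mbp* had a log2 fold change of 1.09 (adjusted p = 0.0747) between the OVX + E2 and OVX + RAL groups, and its part in the values of *Flt1* was not tested.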

How the data were processed

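RNA of mouse utricles was sequenced in 20 libraries of 4 groups, taken from the labels. Libraries were made with a QuantSeq 3′ kit without molecular identifiers from 1 ng of RNA. The authors trimmed the reads, mapped them to GRCm39 (Ensembl 105) and counted them per gene in CLC Genomics Workbench, whose version and strand setting are not given in the sources used here. The deposited total counts are raw counts. The signal columns deposited beside them, scaled expression values, and the authors' own fold changes, log2 fold changes and p-values of their comparisons were not used. There were 0 columns of other samples, and 0 of 40 replicate pairs were identical.

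CPM was computed from column totals. Genes with at least 10 counts over the fitted libraries were tested with edgeR 4.0.16 (quasi-likelihood, total counts as library sizes, R 4.3.3), with Benjamini-Hochberg adjustment over all genes at 0.05, 2-sided. SEs were taken from the fold change and its F value, and 95% intervals from the SE. Each comparison was fitted on its own 2 groups. Alternatives were TMM, DESeq2 1.42.0, no filter, edgeR's default filter, the robust fit, all 4 groups in 1 fit, and leaving out each library. The edgeR fit was tested on simulated data with known changes, where at the estimated spread a larger share of its calls was false than the threshold names. Likeness used log2(CPM + 1) and Spearman's rho. The 10 genes and all lists were chosen with earlier results of these data known, and all 10 are described; of the other lists, the genes with the highest mean CPM are named. Some genes that this rule or the likeness measure would name are not reported here. Floors of 3 counts cover counting error only.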

Additional observations from a re-analysis of the deposited data

Results flagged for a closer look

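In 11 of the 43 groups of 5 libraries tested, 1 library stood apart from the other 4 by Dixon's criterion, its gap over the range of the group. For normally distributed values chance gives about 1 in 20 groups, or 2.15, but these groups hold many zeros, and the 5 with reads in a single library meet the criterion by construction, so the number is not to be read against chance. The groups tested were those of the 10 vessel genes and their sums.

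*Pecam1* was set apart by 68.0 CPM in OVX + v replicate 8 and 48.9 CPM in OVX + E2 replicate 13. *Tie1* was set apart by 56.3 CPM in sham + v replicate 3, 6.44 CPM in OVX + v replicate 9 and 32.9 CPM in OVX + E2 replicate 13, in each case the only library of the group with reads. *Tek* was set apart by 19.6 CPM in OVX + E2 replicate 15 and 12.9 CPM in OVX + RAL replicate 18. *Cdh5* had 36.2 CPM in sham + v replicate 2, and *Esam* 64.8 CPM in OVX + RAL replicate 20. In OVX + E2 replicate 12 both *Cldn5* (40.8 CPM) and *Eng* (57.4 CPM) stood above the other libraries. *Kdr*, *Flt1* and *Rgs5*, the genes with the most reads, had no such library.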

How the results depend on the processing

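None of 624 fold changes of the 10 genes under the alternatives passed an adjusted p of 0.05, and 49 changed sign, 48 of them with a library left out. *Kdr* and *Flt1* kept their signs. The other was *Pecam1* between estradiol and raloxifene, -0.095 with TMM against 0.05. TMM also moved the median of all genes to -0.17 (OVX + E2 against OVX + v) and -0.16 (OVX + E2 against OVX + RAL). With 1 library left out, log2 fold changes against the OVX + v group ran, for sham + v, from -1.52 to 6.81 (*Pecam1*), -1.72 to 1.44 (*Cdh5*), -4.25 to 7.27 (*Tie1*) and -0.51 to 0.61 (*Rgs5*). For OVX + E2 they ran from -2.76 to 7.07 (*Pecam1*), -1.27 to 0.94 (*Cldn5*), -4.08 to 6.27 (*Tie1*), -5.42 to 1.24 (*Tek*), -0.56 to 2.59 (*Eng*) and -0.79 to 0.55 (*Rgs5*). For OVX + RAL they ran from -0.92 to 7.30 (*Pecam1*) and -2.04 to 0.96 (*Tek*). Between estradiol and raloxifene they ran from -2.45 to 0.65 (*Pecam1*), -0.15 to 0.71 (*Cdh5*), -1.01 to 0.81 (*Esam*), -5.42 to 2.21 (*Tek*) and -1.80 to 0.63 (*Eng*). The causes were not tested.

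Over all genes, the calls for sham + v were 2, with 1 by TMM, 1 by DESeq2, 0 by the default filter, 0 by the robust fit and 1 to 10 with a library left out. For OVX + E2 they were 8, with 35 by DESeq2, 1 by the default filter, 4 by the robust fit and 6 to 17 with a library left out. For OVX + RAL they were 4, with 0 by the default filter, 0 by the robust fit and 3 to 11 with a library left out. Between estradiol and raloxifene they were 10, with 42 by DESeq2, 0 by the default filter, 6 by the robust fit, 16 with all 4 groups in 1 fit and 8 to 16 with a library left out. Across the 4 groups they were 21, with 2 by DESeq2, 1 by the default filter, 5 by the robust fit and 17 to 28 with a library left out. No paired analysis was possible because the groups share no replicate numbers. Genes of few reads had intervals too wide to show or exclude large differences at this depth.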
